A study of Mus musculus with 4 samples.

Results

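Translation factors and RNA helicases were examined in granulocyte-monocyte progenitors (GMPs), from which neutrophils and monocytes develop in the marrow. The genes were all annotated genes in the transcript lists whose mouse symbol begins with Eif, Eef, Ddx or Dhx, plus Gcn1, leaving out the Y-linked genes Ddx3y and Eif2s3y. These were 39 of 5059 annotated genes listed in any library, with 54 of 8219 listed transcripts. The prefixes took 21 translation genes, Gcn1 included, 9 Ddx genes and 9 Dhx genes.

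The groups were 2 libraries from MST1-deficient mice and 2 from wild-type mice, each made from the sorted progenitors of 10 pooled mice. Per the labels' protocols, the sorted cells of both groups went into serum-containing medium without any drug, and their poly(A) RNA was sequenced. The labels name no allele, strain, sex, age or batch, and do not say whether the loss of MST1 was limited to blood cells. MST1 was taken to be the Hippo pathway kinase that Stk4 encodes. Only unannotated transcripts, those absent from the reference annotation, are in the lists, so a level given for a gene leaves out its annotated transcripts. No such transcript of Stk4 was listed in any library, so the deficiency could not be checked here.

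Initiation of translation begins when eIF4F, built from the cap-binding protein eIF4E, the scaffold eIF4G and the helicase eIF4A, opens the mRNA's end. The small ribosomal subunit then arrives with eIF3 and with eIF2, which carries the first tRNA. Stress kinases shut this down by phosphorylating eIF2, and GCN2, encoded by Eif2ak4, does so together with its partner GCN1 when ribosomes stall or amino acids run short. DEAD-box (Ddx) and DEAH-box (Dhx) helicases remodel RNA during splicing, export, ribosome assembly and the sensing of viral RNA.

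The eIF4G scaffold genes each had a pair of isoforms that differed by 3 bases. Eif4g1 had unannotated transcripts of 5475 and 5478 bases, and Eif4g3 had transcripts of 6268 and 6271 bases beside one of 6214 bases. The GENCODE M21 annotation of GRCm38, the same build as mm10, lists a pair of splice acceptors 3 bases apart in each gene. The sequences are shown because the length differences that carry the isoform results have the size of these annotated choices. Capitals mark the bases present in the longer form, and the lower case letters are the flanking exon bases after splicing, on the plus strand.
Eif4g1, extra bases at chr16:20681734-20681736: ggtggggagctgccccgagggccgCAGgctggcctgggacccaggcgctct
Eif4g1, without them: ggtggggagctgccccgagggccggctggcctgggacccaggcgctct
Eif4g3, extra bases at chr4:138120346-138120348: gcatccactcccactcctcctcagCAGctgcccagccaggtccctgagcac
Eif4g3, without them: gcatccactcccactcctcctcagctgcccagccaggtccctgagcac
Eif4g3, extra bases at chr4:138180490-138180546: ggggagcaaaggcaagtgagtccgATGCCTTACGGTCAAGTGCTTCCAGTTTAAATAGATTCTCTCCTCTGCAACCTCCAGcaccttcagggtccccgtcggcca
Eif4enif1, extra exon at chr11:3233988-3234059: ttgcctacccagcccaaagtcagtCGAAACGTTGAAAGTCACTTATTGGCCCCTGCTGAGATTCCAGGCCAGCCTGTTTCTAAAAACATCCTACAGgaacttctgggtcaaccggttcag

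In both scaffold genes the 3 extra bases were CAG. The acceptor that adds them was used by 3 annotated Eif4g1 transcripts and the one without them by 8, and in Eif4g3 by 4 and 1. A second acceptor pair in Eif4g3, 57 bases apart, has the size of the difference between its 6214- and 6271-base transcripts. The 72-base exon of Eif4enif1, which encodes the eIF4E transporter 4E-T, has the size of the difference between its 5733- and 5805-base transcripts. Of 18 pairs of unannotated transcripts within a gene, 7 had an annotated internal exon or acceptor pair of exactly the size of their difference. The other 3 were an internal exon of 98 bases in Eif2ak4, of 110 bases in Eif4a2 and of 150 bases in Eef2k, each with no annotated transcript that joins across it. The files give lengths and no exons, so which bases the unannotated transcripts differ by was not tested.

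The unannotated transcripts ranged from 1045 bases in Eif3m to 8752 in Gcn1, with a median of 4286. All 39 genes matched GENCODE, and 21 of 54 transcripts were longer than every annotated transcript of their gene. The widest excess was in Eif3k, a small eIF3 subunit gene, whose 6844-base transcript was 3.84 times the longest annotated one of 1782 bases. Ddx56, a nucleolar helicase gene, had a transcript of 4293 bases against 1956 annotated, and Ddx39b, whose product UAP56 acts in splicing and mRNA export, had 4581 against 2848. Gcn1 was close to its annotation, with 8752 bases against 8555. The longest forms of Ddx6 and Eef2k were far shorter than annotated, at 0.415 and 0.382 times the longest transcript.

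**Figure D1:**
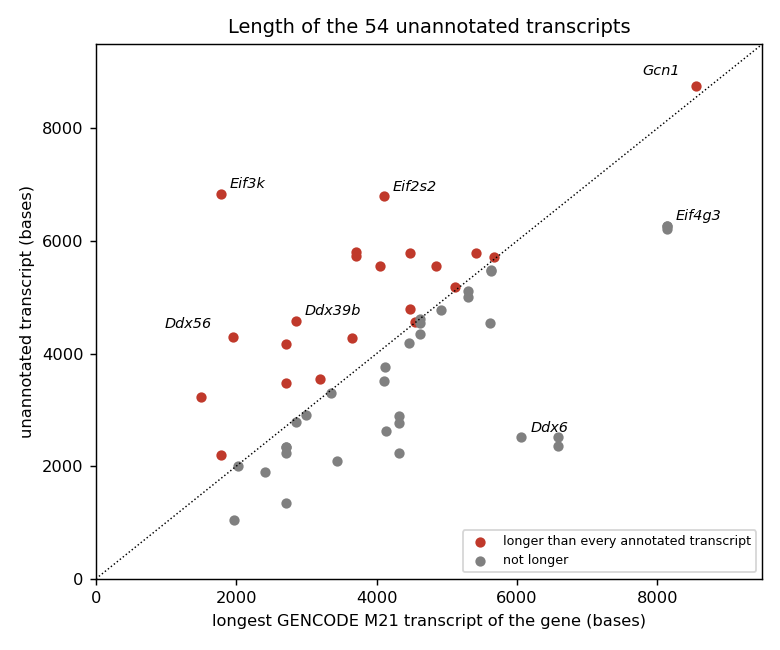
Length in bases of each of the 54 unannotated transcripts (vertical) against the longest GENCODE M21 transcript of the same gene (horizontal). Red points lie above the dotted line of equal length and mark the 21 transcripts longer than any annotated one, with Eif3k farthest above it.

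The listed transcripts summed to between 928977 and 1079382 estimated counts per library, from implied library totals of 6913416 to 8518350. Translation factors and helicases took 13838 and 14988 counts in the MST1-deficient libraries and 15584 and 13905 in wild type. These were 1.49% and 1.5% of the listed counts in MST1-deficient libraries and 1.44% and 1.47% in wild type. The group had 39 of 124 protein-coding RefSeq genes that fit its prefixes listed, or 31.45%, where 22.62% of all protein-coding RefSeq genes were listed. Of 14 progenitor markers, Gfi1, Csf3r and Kit were listed and the granule genes Mpo, Elane and Prtn3 were not, so these lists give little check of the cell type. Levels of other cell types' markers also differed between libraries. The 4 listed erythroid genes summed to 18.5 and 7.84 FPKM in MST1-deficient and 23.6 and 30.7 in wild-type libraries, and the 3 B lineage genes to 9.46 and 8.42 FPKM against 22.3 and 1.72. The summed FPKM was 113 and 126 against 151 and 190 for 4 eosinophil, basophil and mast cell genes, 48.0 and 25.8 against 55.5 and 67.9 for 3 T and NK genes, and 45.9 and 35.3 against 38.0 and 46.4 for 3 megakaryocyte genes. All 4 eosinophil, basophil and mast cell genes (Alox15, Ms4a2, Gata2 and Prg3) were lower in MST1-deficient libraries without overlap. Of all genes tested, 18.8% were, and 0 of the 4 passed the edgeR test described below. Of 8 T and NK genes, 3 were listed, and their sum was almost wholly that of Klrc1 and Klrd1. Cd3g had 1.98 counts in MST1-deficient replicate 1 alone. Klrc1 had 3.98 and 4.34 FPKM against 19.7 and 22.3, without overlap, and Klrd1 had 43.8 and 21.4 against 35.8 and 45.6, with overlap. For Klrc1 the adjusted p was 0.274 with edgeR and 8.55e-05 with DESeq2, tests described below. The part of all these marker differences in the results below was not tested. In bulk RNA, fewer cells of a type and less RNA per cell cannot be told apart.

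FPKM, the estimated count scaled to transcript length and library size, is used here to compare genes. The 5 genes with the most counts, Eif4g1, Dhx9, Ddx39b, Eif4a2 and Eif4g3, held 74.1% of the counts of the whole set. At the other end, 12 genes had at most 20 counts in every library. Of the 39 genes, 32 were listed in all 4 libraries, and of the 54 transcripts, 38 were.

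**Figure D2:**
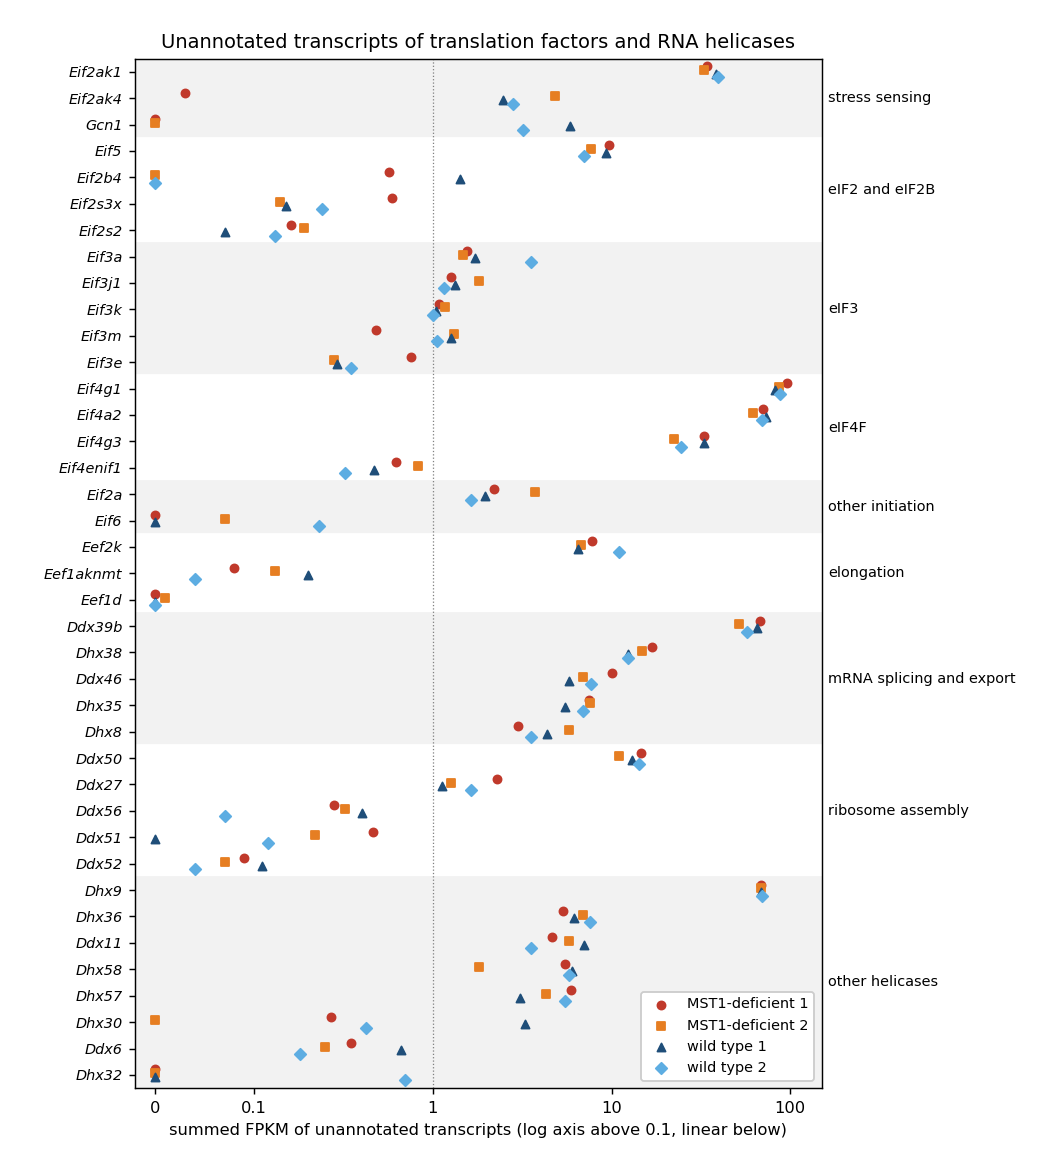
Summed FPKM of the unannotated transcripts of each of the 39 genes (log axis above 0.1) in each library, with circles and squares for MST1-deficient and triangles and diamonds for wild type, grouped by role. The libraries lie close together for the abundant genes, and Gcn1 at 0 in both MST1-deficient libraries and Eif2ak4 near 0 in MST1-deficient replicate 1 stand apart.

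The genotypes were compared with edgeR's quasi-likelihood test on rounded estimated counts, with Benjamini-Hochberg adjusted p-values over all features tested. A gene was tested when its summed FPKM reached 1 in at least 2 libraries, and a threshold of 0.05 was used. Of the 39 genes, 25 were tested and 0 passed, with 0% of all 3221 genes called. At an unadjusted p under 0.05 there was 1 gene of the 25, Gcn1, and 5.65% of all genes tested. DESeq2 called 1 of the 25, again Gcn1, and 1.43% of all genes. Gcn1 was added to the set by name with its difference known, so its place in these counts is a description. None of the other 24 was called by either test or had an unadjusted edgeR p under 0.05. Apart from Gcn1, the other 24 tested genes had log2 fold changes between -0.77 and 0.81, and the median over all 25 was 0.06 beside 0.01 over all genes. In FPKM, the MST1-deficient libraries were both higher than either wild-type library for 4 of 25 genes, where 14% of all genes tested were, and both lower for 4 of 25, where 18.8% were. The higher ones were Eif2a, Dhx38, Eif3k and Dhx35, and the lower ones Gcn1, Eif3a, Dhx58 and Eif2ak1.

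**Figure D3:**
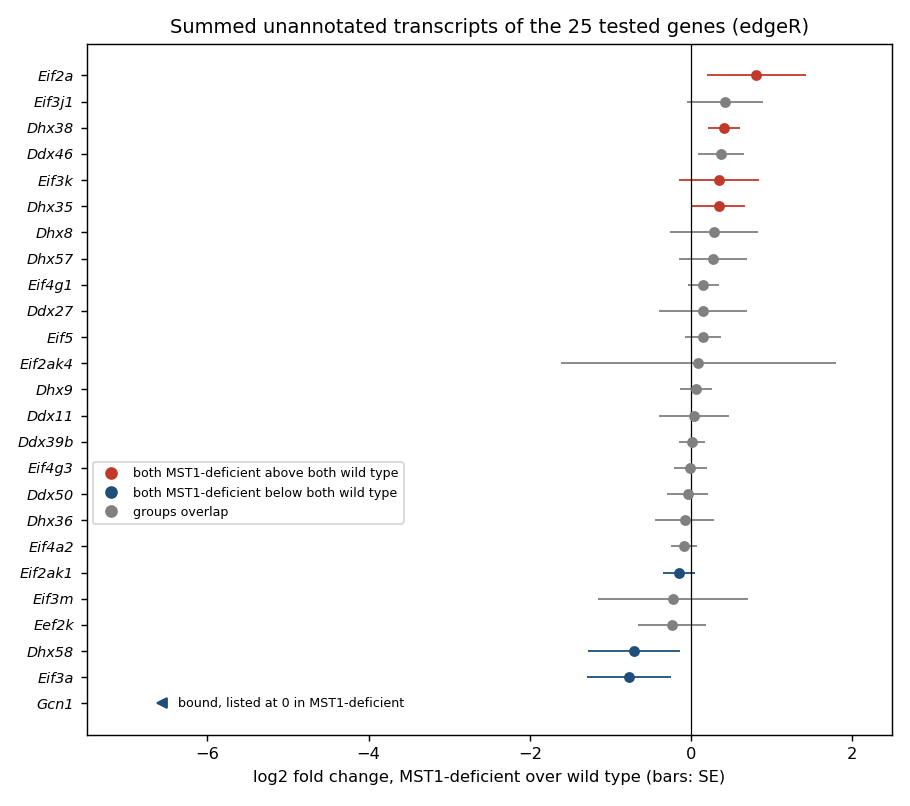
Log2 fold change of the summed unannotated transcripts, MST1-deficient over wild type, for the 25 tested genes. Bars show the SE derived from edgeR's F statistic. Colours mark whether the FPKM of the 2 groups overlapped. Apart from Gcn1, drawn at its bound, the values lie between -0.77 for Eif3a and 0.81 for Eif2a.

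The largest difference was in Gcn1 (gene 231659, chromosome 5, 115565117 to 115622654), whose product binds stalled ribosomes and activates GCN2. Its single 8752-base transcript was listed at 0 in both MST1-deficient libraries and had 402 and 204 estimated counts in wild type. In FPKM this was 0 and 0 in MST1-deficient and 5.85 and 3.20 in wild-type libraries, or 4.53 ± 1.87 in wild type (SD, n = 2). The groups did not overlap. With a floor of 3 counts per library for MST1-deficient cells, the mean level of the 2 wild-type libraries was at least 94.7-fold higher. That bound covers counting error only, and not how reads were assigned to transcripts. The difference did not pass with edgeR (adjusted p = 0.175) and passed with DESeq2 (adjusted p = 5.81e-09). Gcn1 was added to the set by name with this difference known, and it met the level filter through wild type alone, so its values are a description. Whether annotated transcripts of Gcn1 differed was not analysed here. The counts are estimates, and how reads were split between this transcript and the gene's annotated ones was not tested.

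Eif2ak4 (gene 27103, chromosome 2, 118388583 to 118475234), the gene of the kinase GCN2, differed between the MST1-deficient libraries themselves. Its 5012-base transcript had 0.84 and 123 counts in MST1-deficient replicates 1 and 2 and 96.5 and 102 in wild type. The 5110-base transcript was listed in MST1-deficient replicate 2 alone, with 79.6 counts. The summed counts, 0.84 and 203 against 96.5 and 102, therefore put 1 MST1-deficient library below and the other above wild type. The gene's log2 fold change was 0.09 ± 1.70 (SE) (edgeR adjusted p = 0.997), and it was 1.08 when MST1-deficient replicate 1 was left out and -6.42 when MST1-deficient replicate 2 was. In the longer form, MST1-deficient replicate 2 gave 38.8% of the gene's FPKM, and the other 3 libraries gave 0.

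Eif2ak1, which encodes the heme-regulated eIF2 kinase known from red cell precursors, was the abundant gene of this group. It had 34.4 and 32.97 FPKM in MST1-deficient and 38.3 and 39.5 in wild-type libraries, or 33.7 ± 1.04 and 38.9 ± 0.898 (SD, n = 2 each). The groups did not overlap, but the log2 fold change of -0.14 was smaller than its SE of 0.20 (edgeR adjusted p = 0.992). With a library left out it lay between -0.28 and -0.03, nearest to 0 without MST1-deficient replicate 1 (-0.032) or wild-type replicate 2 (-0.035). The 4 of 9 erythroid marker genes that were listed were also lower in MST1-deficient libraries in sum, as given above. Of these, Sptb alone was lower without overlap, at 7.89 and 2.91 FPKM against 13.8 and 15.8. Ank1 had 5.69 and 1.52 against 5.33 and 10.5 FPKM and Tal1 4.88 and 3.41 against 4.16 and 4.47, both with overlap. Hbb-bs had 1.11 counts in wild-type replicate 1 alone. The part of these genes in the Eif2ak1 difference was not tested. The red cell genes Hba-a1 and Klf1 were not listed.

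**Figure D4:**
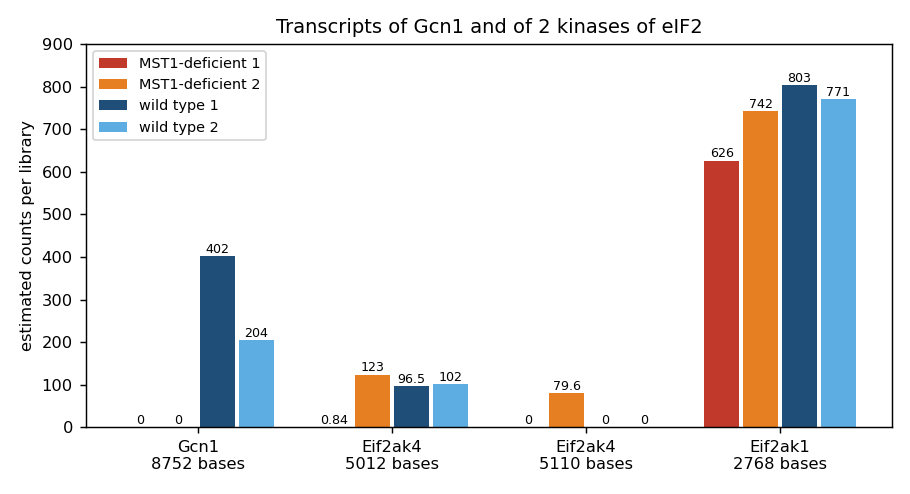
Estimated counts per library (vertical) of the transcripts of Gcn1, Eif2ak4 and Eif2ak1, with MST1-deficient libraries in red and orange and wild-type libraries in blue. Gcn1 is at 0 in both MST1-deficient libraries, and the Eif2ak4 forms are nearly absent from MST1-deficient replicate 1.

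Genes that respond to eIF2 phosphorylation or feed into it were sparse among the unannotated transcripts. Of 21 genes of the integrated stress response, 3 were listed and 2 tested, and 0 passed. Atf4, the transcription factor at the centre of this response, was not listed. Nupr1, a stress-induced nuclear protein gene, had 4.22 and 2.43 FPKM against 10.1 and 5.36 in wild type (log2 fold change -1.17 ± 0.64 SE, edgeR adjusted p = 0.943). Slc7a11, the cystine transporter gene, had 1.84 and 3.56 FPKM against 1.84 and 3.50. Impact, whose product competes with GCN2 for GCN1, was listed in MST1-deficient replicate 2 alone with 13.3 counts. This was the same library that listed the 5110-base form of Eif2ak4, and a link between these listings was not tested.

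Among the subunits of eIF2 and its exchange factor eIF2B, levels were low. Eif2s2, the eIF2 beta subunit gene, had 0.16 and 0.19 FPKM in MST1-deficient and 0.07 and 0.13 in wild-type libraries. Eif2b4, an eIF2B subunit gene, was listed in replicate 1 of each group alone, at 0.57 FPKM in MST1-deficient and 1.41 in wild type. Both genes were below the level filter, with at most 21.1 counts in a library. Eif5, which encodes the factor that makes eIF2 release its GTP energy at the start codon, was higher, with 9.67 and 7.65 FPKM against 9.31 and 6.99 (log2 fold change 0.14 ± 0.23 SE, edgeR adjusted p = 0.992).

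Eif2s3x, the X-linked gene of the eIF2 gamma subunit, had 0.59 and 0.14 FPKM in MST1-deficient and 0.15 and 0.24 in wild-type libraries, and the groups overlapped. Its Y-linked partner Eif2s3y, left out of the set, had 7.57 and 4.64 FPKM against 1.35 and 0, and Ddx3y had 10.2 and 5.6 FPKM against 1.91 and 0. The X-linked partner of Ddx3y, Ddx3x, was not listed, and neither was Xist. The 4 listed Y-linked genes summed to 23.4 and 14.8 FPKM against 3.6 and 0 in wild type, each without overlap, and the sex of the pooled mice is not given. The part of the mice's sex in any difference between the groups cannot be told apart from genotype. Eif2s3x and Eif2s3y are close copies, so the split of reads between them is uncertain.

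The eIF3 complex, which holds the small subunit ready for the mRNA, was represented by 5 genes at low levels, from 0.28 to 3.53 FPKM. Of the 4 tested, 0 passed. Eif3a, the gene of the largest subunit, had 1.55 and 1.47 FPKM in MST1-deficient and 1.72 and 3.53 in wild-type libraries, so wild-type replicate 2 alone was far above the rest. Its log2 fold change was -0.77 ± 0.52 (SE) (edgeR adjusted p = 0.992) and -0.06 without wild-type replicate 2, against -1.26 without wild-type replicate 1. Eif3k had 1.08 and 1.17 FPKM against 1.04 and 1.0, without overlap but with a log2 fold change of 0.35 ± 0.50 (SE) (edgeR adjusted p = 0.992). The Eif3k value was 0.13 without wild-type replicate 1, 0.57 without wild-type replicate 2 and 0.07 to 0.13 with limma on FPKM. Eif3j1, Eif3m and Eif3e overlapped between the groups. Eif3j1 has a near-identical copy, Eif3j2, so the assignment of its reads is uncertain.

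Among the eIF4F genes, Eif4g1, Eif4a2 and Eif4g3 were abundant, and their levels overlapped between the genotypes. Eif4g1 (gene 208643, chromosome 16, 20672720 to 20692883) had 95.5 and 86.4 FPKM in MST1-deficient and 81.8 and 87.9 in wild-type libraries (log2 fold change 0.15 ± 0.19 SE, edgeR adjusted p = 0.992). Eif4a2, one of the eIF4A helicases, had 70.9 and 61.6 against 73.2 and 69.2 FPKM (log2 fold change -0.09 ± 0.16 SE). Eif4g3, the second eIF4G scaffold, had 32.8 and 22.3 against 32.8 and 24.4 FPKM (log2 fold change -0.01 ± 0.20 SE), with replicate 1 above replicate 2 in each genotype. Eif4a2 and the export helicase gene Ddx39b have close paralogs, Eif4a1 and Ddx39a, so the assignment of reads to them is uncertain. The SEs near 0.2 set the precision here: the log2 fold changes of these 3 genes were each smaller than their SE.

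Within Eif4g1, the shares of the 2 forms 3 bases apart did not overlap between the genotypes. The 5475-base transcript had 2248 and 2460 estimated counts in MST1-deficient and 1702 and 1812 in wild-type libraries. The 5478-base transcript had 1276 and 1476 in MST1-deficient and 1784 and 1666 in wild type. The longer form thus made up 36.2% and 37.5% of the gene's FPKM in MST1-deficient and 51.2% and 47.9% in wild-type libraries. The means were 36.9 ± 0.918% and 49.5 ± 2.32% (SD, n = 2 each), a difference of -12.7 percentage points, and the groups did not overlap.

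This difference did not pass any test across all genes. The 5475-base form had a log2 fold change of 0.47 ± 0.23 (SE) (edgeR adjusted p = 0.999) and the 5478-base form one of -0.27 ± 0.21 (SE) (adjusted p = 0.999). For the balance between the forms, diffSplice gave an adjusted p of 0.865 for the gene. Of 41 tested pairs of transcripts 3 bases apart in 40 genes, the longer form's share was lower in both MST1-deficient libraries for 12.2% and higher for 19.5%, and 16 pairs differed by at least as much as Eif4g1. Reads tell these forms apart only where they cross the junction, so both counts are estimates that trade off against each other.

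In Eif4g3, the longer form of the pair 3 bases apart also had a lower mean share in MST1-deficient libraries, but with spread between pools as large as the difference. The 6271-base form took 27.9% and 2.15% of the FPKM of the 3-base pair in MST1-deficient and 43.5% and 15.2% in wild-type libraries, and the groups overlapped. Replicate 2 of each genotype had the lower share. Over all 3 forms, the 6214-base form made up 41.9% and 56.2% in MST1-deficient and 44.8% and 46.6% in wild type. The balance did not pass (diffSplice adjusted p = 0.973).

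Eif4a2 differed between the MST1-deficient libraries. Its 2230-base form had 274 and 682 counts in MST1-deficient replicates 1 and 2 and 526 and 519 in wild type. A 2340-base form, longer by the size of an annotated internal exon of 110 bases, had 173 counts in MST1-deficient replicate 1 and was listed at 0 in the other 3 libraries. Both short forms together gave 447 and 682 counts against 526 and 519. The 3480-base form had 937 and 672 counts against 1112 and 886, and the balance of the tested forms did not pass (diffSplice adjusted p = 0.991).

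**Figure D5:**
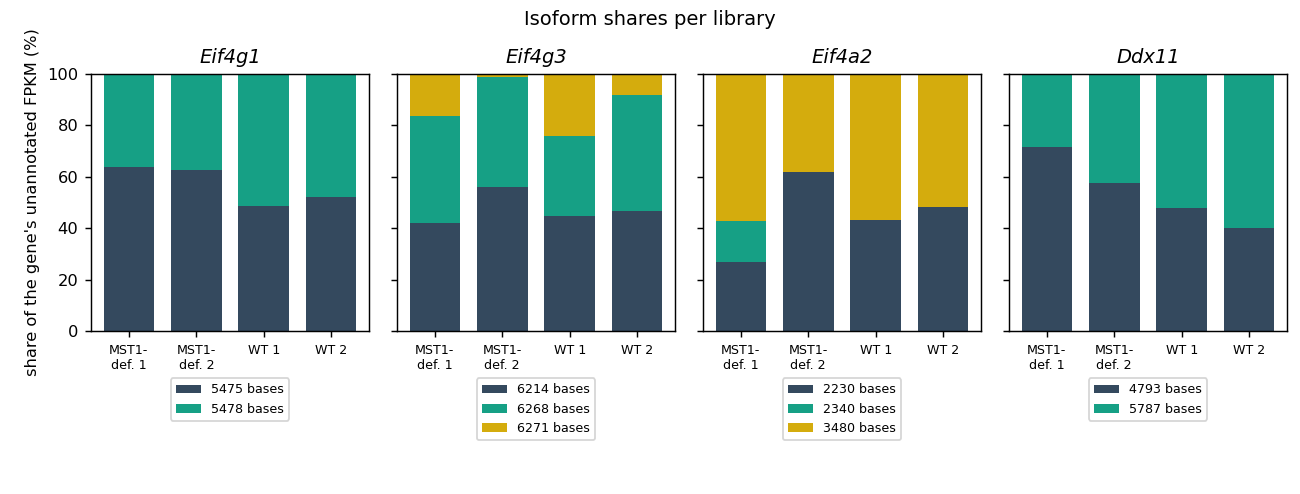
Share in percent of each unannotated transcript in its gene's FPKM, for Eif4g1, Eif4g3, Eif4a2 and Ddx11, with the MST1-deficient libraries left of the wild-type ones and colours for transcript length. In Eif4g1 the dark 5475-base share is 63.8% and 62.5% in MST1-deficient and 48.8% and 52.1% in wild-type libraries.

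Eif4enif1 was listed at low levels, with 0.62 and 0.82 FPKM against 0.47 and 0.32 in wild type. Its 5805-base form had 0 and 3.97 counts in MST1-deficient and 21.3 and 0 in wild-type libraries, and its 5733-base form 23.9 and 35.3 against 0 and 13.3. Wild-type replicate 1 therefore listed the longer form alone, and both MST1-deficient libraries and wild-type replicate 2 listed mainly or only the shorter one. At these counts the gene was not tested.

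Other initiation and elongation genes were few. Eif2a encodes an initiator tRNA-binding protein distinct from eIF2, and had 2.20 and 3.71 FPKM in MST1-deficient and 1.96 and 1.63 in wild-type libraries. The groups did not overlap, with a log2 fold change of 0.81 ± 0.62 (SE) (edgeR adjusted p = 0.992), and it was 0.19 without MST1-deficient replicate 2, against 1.23 without MST1-deficient replicate 1. Eef2k, the gene of the kinase that halts elongation factor eEF2, had 7.75 and 6.77 FPKM against 6.45 and 11.1, with wild-type replicate 2 highest. Its 2515-base form carried 95.6% and 89.2% of this in MST1-deficient and 94.6% and 96.3% in wild-type libraries. Eif6, an anti-association factor of the large ribosomal subunit, the eEF1A methyltransferase gene Eef1aknmt and the exchange factor gene Eef1d never exceeded 7.24 counts in a library.

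Helicases of splicing and export were all tested, and none of the 5 passed. Ddx39b had 67.7 and 51.9 FPKM in MST1-deficient and 65.3 and 57.2 in wild-type libraries. Its log2 fold change was 0.01 ± 0.16 (SE). Dhx38, the mammalian form of the yeast splicing helicase Prp16, had 16.9 and 14.9 FPKM against 12.4 and 12.4 and did not overlap. Its log2 fold change was 0.41 ± 0.20 (SE) (edgeR adjusted p = 0.941), and it stayed between 0.31 and 0.50 when each library was left out. Dhx35 had 7.45 and 7.55 FPKM against 5.49 and 6.88, also without overlap (log2 fold change 0.34 ± 0.33 SE, edgeR adjusted p = 0.992). The Dhx35 value ranged more widely with a library left out, from 0.10 without wild-type replicate 1 to 0.61 without wild-type replicate 2. Ddx46, which acts on the U2 particle, and Dhx8, which frees spliced mRNA, overlapped between the groups, with log2 fold changes of 0.37 (SE 0.29) and 0.28 (SE 0.55).

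Among ribosome assembly helicases, Ddx50, a nucleolar helicase gene, led with 14.7 and 11.0 FPKM in MST1-deficient and 12.99 and 14.2 in wild-type libraries. Ddx27 had 2.28 and 1.26 FPKM against 1.13 and 1.64, spread over 3 transcripts. Its 1343-base form was listed at 0 in wild-type replicate 1 and made up 44.3% and 39.7% in MST1-deficient and 38.4% in wild-type replicate 2, from at most 8.42 counts. Ddx51, Ddx52 and Ddx56 had at most 17.2 counts in any library and were not tested. Ddx51 had 17.1 and 9.96 counts in MST1-deficient and 0 and 4.82 in wild-type libraries.

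Dhx9, the gene of RNA helicase A, varied little in FPKM. It had 68.3 and 69.0 FPKM in MST1-deficient and 68.5 and 69.2 in wild-type libraries, or 68.6 ± 0.488 and 68.8 ± 0.537 (SD, n = 2 each). The spread between pools was therefore under 1 FPKM in each genotype. Its log2 fold change on counts was 0.06 ± 0.20 (SE) (edgeR adjusted p = 0.992). Dhx36, whose product unwinds G-quadruplexes, had 5.36 and 6.92 FPKM against 6.14 and 7.57, and Dhx57 had 5.90 and 4.27 against 3.08 and 5.46.

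Dhx58 encodes LGP2, a sensor of viral RNA that interferon induces. It had 5.5 and 1.8 FPKM in MST1-deficient and 5.98 and 5.81 in wild-type libraries, and MST1-deficient replicate 2 was far below the other 3. The log2 fold change was -0.71 ± 0.57 (SE; edgeR adjusted p = 0.992) and was -0.20 without MST1-deficient replicate 2, against -1.51 without MST1-deficient replicate 1. Dhx30, which acts in mitochondrial ribosome assembly, was listed mainly in wild-type replicate 1, with 8.14 and 0 counts in MST1-deficient and 112 and 13.8 in wild-type libraries. Dhx32 was listed in wild-type replicate 2 alone, with 14.5 counts. Ddx6, a translational repressor of processing bodies, had 5.79 and 5.12 counts against 12.4 and 3.14.

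Ddx11, a DNA helicase of sister chromatid cohesion that carries a Ddx name, had the widest difference in isoform share among genes with at least 2 tested transcripts. Its 4793-base form made up 71.6% and 57.5% of FPKM in MST1-deficient and 47.9% and 40.3% in wild-type libraries, without overlap. The means were 64.6 ± 10.0% and 44.1 ± 5.36% (SD, n = 2 each), a difference of 20.5 percentage points. The balance did not pass (diffSplice adjusted p = 0.865). Of 909 genes tested for balance, 45.1% had a transcript whose shares did not overlap and 1.21% passed. Of the 4 translation and helicase genes in that test, Ddx11 and Eif4g1 had such a transcript and 0 passed. The summed level of Ddx11 overlapped, with 4.62 and 5.81 FPKM against 7.0 and 3.55.

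At the level of single transcripts, 29 of the 54 were tested and 0 passed with edgeR, as for 0% of all 4661 transcripts tested. The lowest adjusted p among them was 0.376, for Gcn1, which was also the 1 transcript with an unadjusted p under 0.05, where 5.26% of all transcripts had one. DESeq2 called that transcript alone among the 29 and 2.21% of all transcripts. Since Gcn1 was added by name with its difference known, its place in these counts is a description. The FPKM of 4 transcripts lay higher without overlap in MST1-deficient cells, where 13.7% of all transcripts did, and that of 5 lay lower, where 19.9% did. The 25 transcripts not tested were too low in at least 3 libraries, such as the 5110-base form of Eif2ak4 and the 2340-base form of Eif4a2, each at or above 1 FPKM in 1 library.

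Other genes of translation control were read from lists beside the named families. Of 29 genes of mTOR and cap-binding control, 10 were listed and 8 tested, and 0 passed. Paip1, a partner of poly(A)-binding protein that stimulates initiation, had 2.97 and 4.68 FPKM against 2.0 and 1.95 (log2 fold change 1.05 ± 0.45 SE, edgeR adjusted p = 0.912). Mknk2, a kinase of eIF4E, had 81.4 and 72.0 against 85.2 and 91.8 FPKM (log2 fold change -0.15 ± 0.19 SE). In FPKM, Paip1 was the 1 of 8 higher without overlap, where 14% of all genes tested were. Mknk2 and Akt1s1 were the 2 of 8 lower without overlap, where 18.8% were. Akt1s1 had 14.4 and 11.9 against 15.5 and 20.5 FPKM (log2 fold change -0.41 ± 0.31 SE).

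Of 29 genes of ribosome rescue and quality control, 14 were listed, 9 tested and 0 passed. In FPKM, 3 of the 9 were higher in MST1-deficient libraries without overlap and 1 lower, where 14% and 18.8% of all genes tested were. The median log2 fold change was 0.38 beside 0.01 over all genes, and was the value of Map3k20 (SE 1.87). Map3k20 had 0 and 104 counts in MST1-deficient and 45.2 and 38.95 in wild-type libraries. The median was -0.53 for the stress response list, -0.08 for mTOR and cap-binding control, -0.37 for the exon junction list and 0.21 for synthetases. Upf2, a factor of nonsense-mediated decay, had 3.84 and 4.56 FPKM against 3.81 and 2.78. Upf3b of the same pathway had 1.45 and 0.65 against 2.54 and 2.38 FPKM, so these 2 genes differed in sign. Among 25 genes of the exon junction complex and other RNA helicases, 7 were listed, 4 tested and 0 passed. Zgrf1, a helicase gene, had 3.59 and 2.40 against 5.16 and 6.27 FPKM (log2 fold change -0.92 ± 0.30 SE, edgeR adjusted p = 0.791). Of 39 aminoacyl-tRNA synthetase genes, 13 were listed, 4 tested and 0 passed, with Wars at 3.01 and 1.5 against 1.16 and 0.63 FPKM (log2 fold change 1.40 ± 0.69 SE, edgeR adjusted p = 0.941).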

How the data were processed

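The lists of unannotated transcripts of 2 MST1-deficient and 2 wild-type libraries were used. The submitters' processing notes name build mm10, and the aligner, assembler and estimator are not given in the sources used here. Per the file headers, the authors made an estimated count (expected count) for each transcript, which was not normalised. The authors deposited FPKM beside it, which divides the count by transcript length and library size.

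Transcripts absent from a library's list counted as 0. Symbols and positions came from RefSeq (GRCm38.p6), where 5051 of 5059 genes matched, and transcript lengths and splice choices from GENCODE M21. Library totals were implied by fitting count over FPKM against length. Rounded counts, as gene sums and per transcript, were tested with edgeR 4.0.16 (TMM, quasi-likelihood F-test, 2-sided; R 4.3.3) where FPKM reached 1 in 2 or more libraries. For isoform balance, diffSplice (limma 3.58.1) was run on log2(FPKM + 0.5), with the spread pooled over a gene's transcripts. The edgeR, DESeq2 and diffSplice procedures were also run on simulated data. Those data took their spread from fits to these libraries, so they cannot tell which test is right here. DESeq2 1.42.0, other size factors, pseudocounts and filters, a replicate block and leaving out each library were the alternatives.

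The 2 libraries of each group differed by more than sampling noise (chi-square per degree of freedom 23.6 in MST1-deficient and 16.3 in wild type), so none was merged. SDs and p-values cover the spread between 2 pools per group, and the floor of 3 counts covers counting error only. Each SE of a log2 fold change was derived as its absolute value divided by the square root of edgeR's F statistic. An exact permutation test of 2 against 2 libraries cannot give a p below 0.33, so single shares were not tested. The genes, lists and tests were chosen with earlier results of these data known. The rule for named genes took Gcn1, Eif2ak4, Ddx3x and Eif2s3x, genes past a threshold or listed in 1 group alone, the 10 highest in mean FPKM, up to 8 a direction with the largest fold change without overlap, up to 8 with the largest difference in isoform share, and up to 6 transcripts a direction. The other genes, and examples from the further lists, were named after their values were seen, to account for the whole set.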

Additional observations from a re-analysis of the deposited data

How the results depend on the processing

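The number of genes past the threshold was 0 in the edgeR test and also with RLE size factors, implied library totals, no filter and the replicate block. It was 46 with DESeq2, 5, 9 and 5 with limma at pseudocounts of 0.5, 0.1 and 1, and 1 when only genes listed in every library were kept. For transcripts it was 103 with DESeq2, 5 and 6 with limma at pseudocounts of 0.5 and 1, and 2 when only transcripts listed in every library were kept, against 0 otherwise. Leaving out each library gave 0 to 0 for both. Over every setting of the 3 tests, Gcn1, added by name with its difference known, was the 1 translation or helicase gene called, by DESeq2. Genes with a changed isoform balance numbered 11, and 25 and 7 with pseudocounts of 0.1 and 1, 1 with listing in every library required, 7 with no filter, 0 with the replicate block and 0 to 1 with a library left out. The cause of these shifts was not tested. Same-numbered libraries deviated together only weakly (correlation 0.127 across 3221 genes), and the labels do not say that numbers mark shared mice or days.

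Single values changed sign in 9 of 31 results, none of them past the threshold in any setting, and the cause was not tested. With implied library totals, the log2 fold change became -0.003 for Dhx9, -0.033 for Ddx39b, -0.106 for Eif2ak4 and -0.064 for Ddx11. With limma at pseudocounts of 0.5, 0.1 and 1 it became -0.004, -0.005 and -0.004 for Dhx9, -0.043, -0.044 and -0.043 for Ddx39b, and -0.901, -1.774 and -0.570 for Eif2ak4. Ddx39b was -0.007 with no filter and -0.003 among genes listed in every library, and Eif2ak4 was -1.706 with the replicate block. With a library left out, the log2 fold change ranged over -0.111 to 0.207 for Dhx9, -0.028 to 0.049 for Ddx39b, -0.148 to 0.110 for Eif4g3, -0.198 to 0.111 for Ddx50, -0.653 to 0.309 for Eef2k, -6.424 to 1.076 for Eif2ak4 and -0.339 to 0.482 for Ddx11. The isoform balance ranged over -2.586 to 0.135 for the 6271-base form of Eif4g3 and -0.931 to 0.832 for the 3480-base form of Eif4a2, which was -0.049 with all libraries and -1.326 with no filter. Of 381 values under alternatives, 348 kept their direction and their side of the threshold, 31 changed sign and 2, both of Gcn1 with DESeq2, passed the threshold. Gcn1 was below the level filter when either wild-type library was left out. The level filter left 14 of the 39 genes untested.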
